A study of Homo sapiens with 12 samples.

Results

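JCHAIN, the joining chain of polymeric immunoglobulin, was examined together with 7 genes of the antibody secretion machinery, MZB1, FKBP11, SEC11C, DERL3, TXNDC5, SSR4 and SDC1, in 2 human B cell lymphoma lines. The 8 genes were chosen by measured values of these arrays, namely a very high JCHAIN signal in DOHH2 in earlier results, and the question was whether a secretory program accompanied it. Their differences between the lines are therefore given below as a description, with no test. Members were found as the probes annotated to the 8 symbols, which gave 13 of the 47231 probes on the array. Of these, 12 probes passed the filter on dim signals, and all 8 genes were among the 11728 genes tested.

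The 12 samples fell into 4 groups of 3 arrays each. The groups were DOHH2 with ST5589 at 300 nM, DOHH2 with the vehicle DMSO, TMD8 with ST5589 at 300 nM, and TMD8 with DMSO. DOHH2 comes from a transformed follicular lymphoma and TMD8 from a diffuse large B cell lymphoma of the activated B cell type. ST5589 is a derivative of ST1926, a synthetic retinoid. Each line stands for its group alone, so a difference between DOHH2 and TMD8 is a difference between 2 lines, not between lymphoma types. Neither the length of exposure nor whether replicates were separate cultures is stated, so the spread behind each p-value is that between arrays and may be technical.

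Array medians ranged from 90.0 to 113 units of intensity, and 38.7% to 49.0% of probes lay above background. DOHH2 and TMD8 were hybridised on different chips, and a chip effect cannot be told apart from a line effect. Within a chip the DMSO and ST5589 arrays lay at opposite ends, so treatment and place cannot be told apart either. The second DOHH2 ST5589 array held 7 probes that were bright in all 6 TMD8 arrays and above background in no other DOHH2 array, at a median of 5.03% of their TMD8 signal; the other 11 arrays held 0 such probes. Of 5 B cell markers on the array, MS4A1, CD79A, CD79B and CD22 were above background on every array, while PAX5 was not above background in all 3 arrays of any group. Of 6 germinal centre markers, BCL6, SERPINA9, LMO2 and MYBL1 were above background in all arrays of both TMD8 groups, and MME, SERPINA9 and LMO2 in both DOHH2 groups. All 7 activated B cell markers were so in every group. All 8 plasma cell markers, JCHAIN, MZB1 and SDC1 among them, were so in every group, except CD38 in TMD8 with DMSO. Of 9 T and NK cell markers, 0 were above background in all 3 arrays of either DOHH2 group, and CD5 alone was in TMD8. Of 7 myeloid markers, LYZ and S100A8 were above background in all 3 arrays of both DOHH2 groups, CD14 and LYZ in TMD8 with ST5589, and CD14 in TMD8 with DMSO. Of 7 stromal and epithelial markers, 0 were so in DOHH2 with ST5589, COL1A1 and PECAM1 were in DOHH2 with DMSO, COL1A1 and DCN in TMD8 with ST5589, and EPCAM in TMD8 with DMSO. Their part in the results was not tested. Such bulk measurements cannot tell fewer cells of a type from less RNA per cell.

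A B cell that becomes an antibody-secreting plasma cell enlarges its endoplasmic reticulum and raises the proteins that thread immunoglobulin chains into it, fold them, link them and dispose of failed products. J chain joins IgM and IgA units into polymers and is needed for their transport across epithelia. The transcription factor XBP1 drives much of the secretory machinery, and PRDM1 and IRF4 drive the wider plasma cell program.

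The stretch before the transcript start is shown for JCHAIN and for MZB1, the members that act on polymeric IgM itself, because XBP1 binds sequences with the core ACGTGGC. Sequences are RefSeq's on GRCh38.p14, written 5′ to 3′ on the gene's strand, 250 bases each, and capitals mark the core. The JCHAIN stretch lies at chr4:70666509-70666758 and the MZB1 stretch at chr5:139389914-139390163, both on the minus strand.
JCHAIN: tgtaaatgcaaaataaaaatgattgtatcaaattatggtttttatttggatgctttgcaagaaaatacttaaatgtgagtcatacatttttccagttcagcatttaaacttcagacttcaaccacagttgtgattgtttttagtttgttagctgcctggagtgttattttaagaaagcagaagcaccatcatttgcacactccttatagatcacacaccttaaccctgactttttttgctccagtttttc
MZB1: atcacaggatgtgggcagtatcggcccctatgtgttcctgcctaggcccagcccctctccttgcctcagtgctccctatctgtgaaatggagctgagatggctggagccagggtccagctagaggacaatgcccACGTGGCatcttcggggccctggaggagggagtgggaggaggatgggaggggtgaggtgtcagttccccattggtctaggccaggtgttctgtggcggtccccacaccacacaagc
The core lay 116 to 110 bases before the MZB1 start and was not found in the JCHAIN stretch on either strand. Over the 7 members with an entry it was found for 4, MZB1, TXNDC5, SEC11C and SSR4, against 3.42% of the 27305 genes with an entry; for TXNDC5 and SSR4 it lay before the second of 2 listed starts. The letters were chosen after these stretches had been read. DERL3 had no entry. The octamer ATGCAAAT, a motif of immunoglobulin promoters, was found for 0 of the 7 members and 2.03% of all genes. The endoplasmic reticulum stress elements, CCAAT followed after 9 bases by CCACG, and ATTGG followed after 1 base by CCACG, were found for 0 of the 7 members on either strand, against 0.0916% and 0.0659% of all genes. A match describes these letters in this window and says nothing of binding.

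JCHAIN stood far apart from the other members in the size of its difference between lines. Its signal was 13.36, 13.33 and 13.23 on the log2 scale in DOHH2 with ST5589 and 13.37, 13.36 and 13.45 in DOHH2 with DMSO. In TMD8 it was 6.80, 6.59 and 6.77 with ST5589 and 7.09, 7.19 and 6.96 with DMSO. The 6 DOHH2 arrays lay close together and far above all 6 TMD8 arrays, which were dim but above background. Under DMSO the DOHH2 signal was 79.6-fold that of TMD8, a log2 difference of 6.32 ± 0.09 (SE). Under ST5589 it was 96.0-fold, a log2 difference of 6.59 ± 0.09. Of the 11728 genes tested, none had a higher difference in either treatment. The size of the fold under DMSO depended on how the dim TMD8 signal was handled, from 62.1-fold in the authors' deposited log2 values to 106-fold with a smaller normexp offset.

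**Figure D1:**
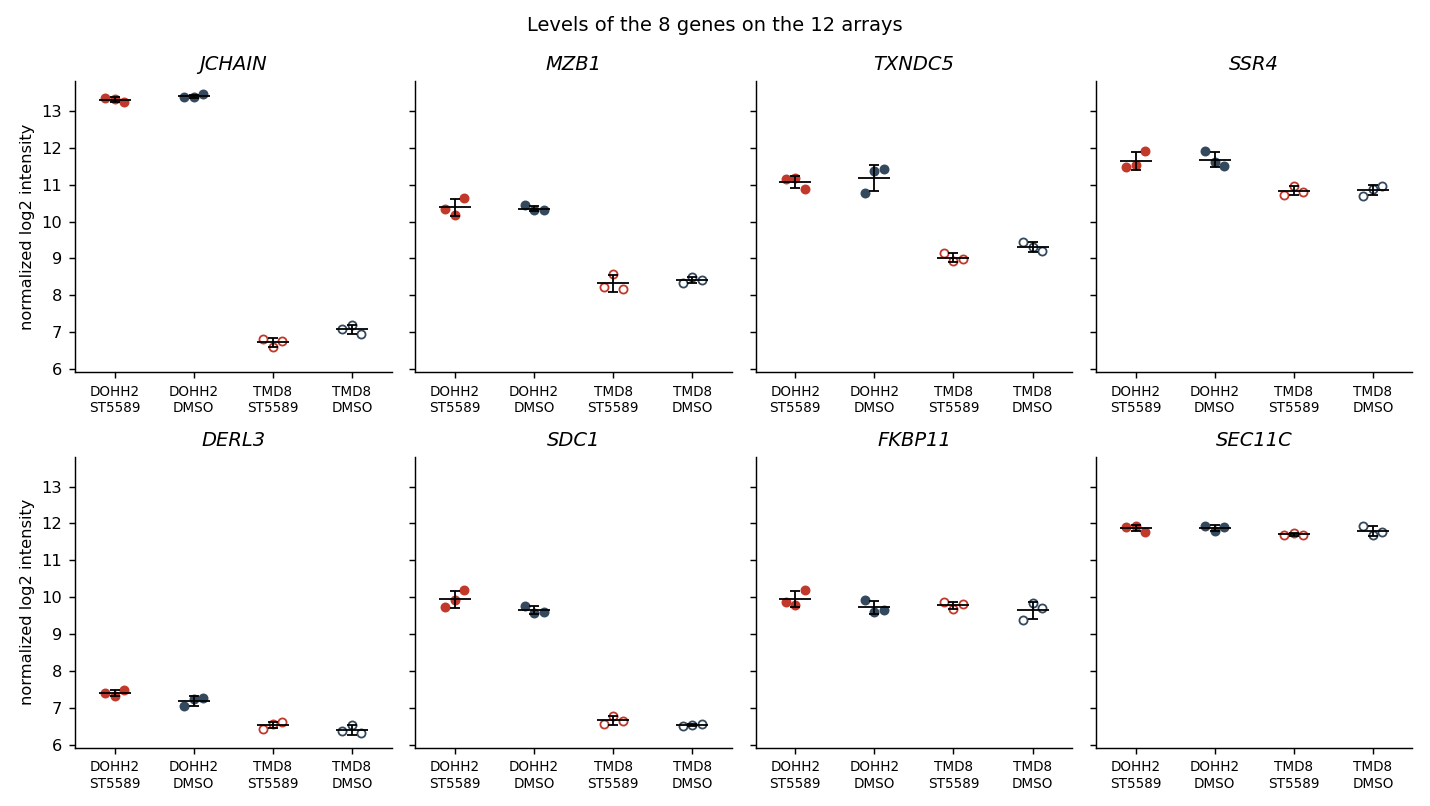
Normalized log2 signal (vertical axis) of the 8 members in the 12 arrays, 1 panel per gene, with the groups DOHH2 ST5589, DOHH2 DMSO, TMD8 ST5589 and TMD8 DMSO from left to right. Points are arrays, horizontal lines are group means and error bars are SDs; levels of different panels come from different probes and are not comparable. JCHAIN lies between 13.23 and 13.45 in DOHH2 and between 6.59 and 7.19 in TMD8, whereas FKBP11 overlaps between the lines.

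MZB1, an endoplasmic reticulum cochaperone that helps IgM heavy chains assemble and leave the compartment, was also higher in DOHH2. Its signal was 10.33, 10.18 and 10.65 in DOHH2 with ST5589 and 10.44, 10.31 and 10.31 in DOHH2 with DMSO. In TMD8 it was 8.21, 8.58 and 8.17 with ST5589 and 8.33, 8.49 and 8.41 with DMSO. Every DOHH2 array lay above every TMD8 array. The DOHH2 signal was 3.85-fold that of TMD8 under DMSO and 4.19-fold under ST5589. A second MZB1 probe gave the same direction with a smaller size, 1.68-fold under DMSO and 1.92-fold under ST5589, and the mean of both probes was 2.54-fold under DMSO.

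TXNDC5, a disulfide isomerase of the endoplasmic reticulum abundant in plasma cells, had a line difference close to that of MZB1. Its signal was 11.16, 11.19 and 10.88 in DOHH2 with ST5589 and 10.78, 11.37 and 11.41 in DOHH2 with DMSO. In TMD8 it was 9.15, 8.93 and 8.99 with ST5589 and 9.46, 9.30 and 9.19 with DMSO. The lines did not overlap, and the DOHH2 DMSO arrays spread more widely than the others. The log2 difference between DOHH2 and TMD8 was 1.87 ± 0.15 under DMSO and 2.05 ± 0.15 under ST5589. A second TXNDC5 probe was 2.68-fold higher in DOHH2 under DMSO and 2.28-fold higher under ST5589.

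The other folding enzyme, FKBP11, a peptidyl-prolyl isomerase of the secretory pathway, showed no such difference. Its signal was 9.87, 9.79 and 10.18 in DOHH2 with ST5589 and 9.94, 9.59 and 9.66 in DOHH2 with DMSO, against 9.87, 9.69 and 9.80 in TMD8 with ST5589 and 9.39, 9.85 and 9.70 in TMD8 with DMSO. The lines overlapped in both treatments. The log2 difference was 0.08 ± 0.14 under DMSO, with a 95% interval of -0.21 to 0.38, and 0.16 ± 0.14 under ST5589, with an interval of -0.13 to 0.46. Both intervals reached no higher than 1.37-fold in favour of DOHH2. They reflect the spread between arrays only, and line and chip cannot be told apart, so no size of line difference is excluded by them.

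The members of the import machinery split. SSR4 is a subunit of the translocon-associated protein complex, which helps nascent chains enter the endoplasmic reticulum. Its signal was 11.48, 11.54 and 11.92 in DOHH2 with ST5589 and 11.92, 11.61 and 11.51 in DOHH2 with DMSO, against 10.72, 10.97 and 10.81 in TMD8 with ST5589 and 10.70, 10.89 and 10.96 in TMD8 with DMSO. All DOHH2 arrays were above all TMD8 arrays, by 1.78-fold under DMSO and 1.76-fold under ST5589 in the mean. SEC11C is a catalytic subunit of the signal peptidase, which cuts the signal peptide from imported chains. Its signal was 11.91, 11.93 and 11.78 in DOHH2 with ST5589 and 11.94, 11.78 and 11.91 in DOHH2 with DMSO, against 11.68, 11.74 and 11.69 in TMD8 with ST5589 and 11.94, 11.67 and 11.77 in TMD8 with DMSO. The SEC11C arrays overlapped between lines under DMSO and were apart by a small margin under ST5589. The log2 difference of SEC11C was 0.09 ± 0.09 under DMSO (95% interval -0.11 to 0.28) and 0.17 ± 0.09 under ST5589 (95% interval -0.03 to 0.36).

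DERL3, a derlin that takes part in returning misfolded proteins to the cytosol for degradation, was dim in all groups. Its signal was 7.41, 7.33 and 7.49 in DOHH2 with ST5589 and 7.04, 7.23 and 7.28 in DOHH2 with DMSO, against 6.43, 6.56 and 6.61 in TMD8 with ST5589 and 6.36, 6.55 and 6.31 in TMD8 with DMSO. The lines did not overlap. The DOHH2 signal was 1.72-fold that of TMD8 under DMSO and 1.83-fold under ST5589. A second DERL3 probe was above background on all 6 DOHH2 arrays, 0 of 3 TMD8 ST5589 arrays and 1 of 3 TMD8 DMSO arrays, and was at least 1.52-fold higher in DOHH2 under ST5589. A fold given as "at least" replaces each dim value by the lowest signal that counted as above background on that array, where that is higher.

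SDC1 encodes syndecan-1, or CD138, the surface proteoglycan used to recognise plasma cells. With each member read from its brightest probe, SDC1 had the widest line difference after JCHAIN among the members. Its signal was 9.74, 9.91 and 10.19 in DOHH2 with ST5589 and 9.78, 9.57 and 9.59 in DOHH2 with DMSO. In TMD8 it was 6.56, 6.79 and 6.64 with ST5589 and 6.51, 6.54 and 6.57 with DMSO. The DOHH2 arrays were all above the TMD8 arrays, by 8.61-fold under DMSO and 9.75-fold under ST5589 in the mean. The remaining 2 SDC1 probes did not share this. One of them was near background in every group, with a log2 difference between DOHH2 and TMD8 of 0.01 ± 0.11 under DMSO and -0.21 ± 0.11 under ST5589. Under ST5589 it was above background on 0 of 3 DOHH2 arrays and 3 of 3 TMD8 arrays, did not overlap between the lines and was at least 1.07-fold lower in DOHH2, opposite to the bright probe. The other was above background on none of the 12 arrays. The mean of the 2 kept SDC1 probes was 2.94-fold higher in DOHH2 under DMSO, and with a normexp offset of 16 in place of 50 the bright probe was 13.0-fold higher.

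All 8 members had a positive difference in both treatments, from 0.08 for FKBP11 to 6.32 for JCHAIN on the log2 scale under DMSO, with a median of 1.35, or 0.83 over the 7 members other than JCHAIN. The median over all 11728 genes was -0.03 in both treatments. Under ST5589 the members' median was 1.46. Over the 22 alternatives the FKBP11 difference under DMSO ran from -0.08 to 0.18, so its sign depended on the processing and the arrays used. Arrays of the lines did not overlap for 6 members under DMSO, where 27.8% of all genes did so in that direction, and for 7 under ST5589, against 29.9%. These member counts only restate how the genes were chosen. Without the second DOHH2 ST5589 array JCHAIN differed by 6.57 on the log2 scale under ST5589.

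**Figure D2:**
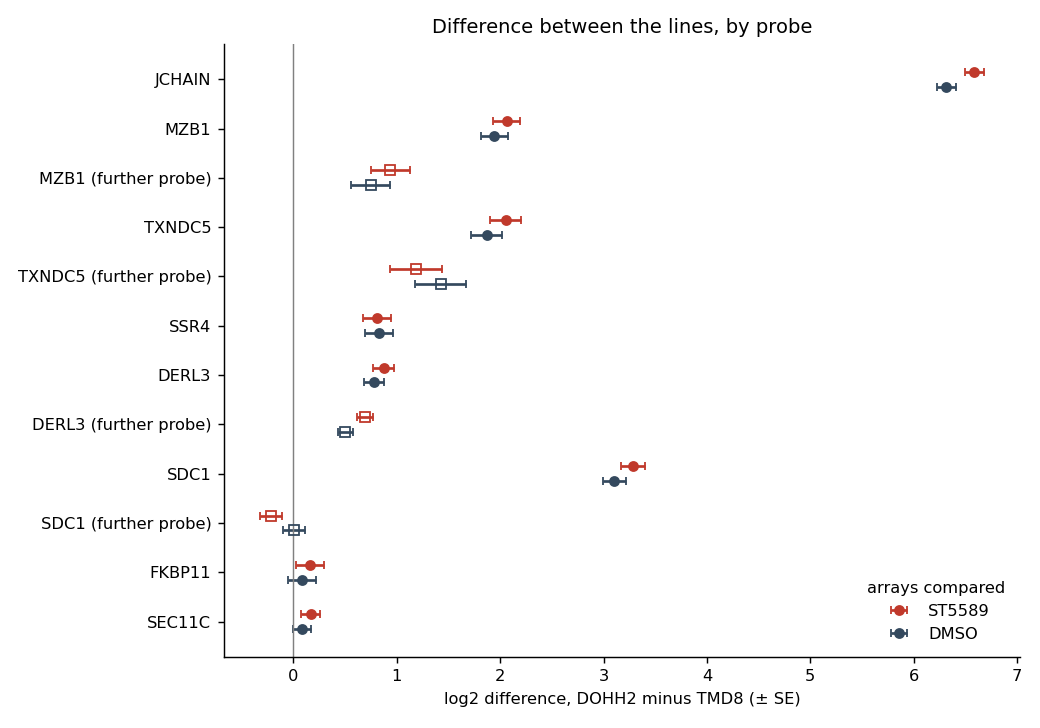
Difference between DOHH2 and TMD8 on the log2 scale for each member and its further kept probes (open squares), under ST5589 (red) and under DMSO (blue); bars are ± SE. JCHAIN lies at 6.59 under ST5589 and 6.32 under DMSO, SDC1 follows at 3.28 and 3.11, and FKBP11 and SEC11C lie between 0.08 and 0.17.

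The genes nearest to JCHAIN over the 12 arrays were sought as a description. Likeness was measured as the root mean square distance between the centred log2 signals of JCHAIN and of another gene over the 12 arrays, which form 2 clusters by line, so that it mostly reads again the size of the line difference for which JCHAIN stood out. The nearest of all other genes was UCHL1, a ubiquitin hydrolase, at 0.263. UCHL1 averaged 12.04 ± 0.02 in DOHH2 with ST5589 and 12.05 ± 0.09 in DOHH2 with DMSO (SD, n = 3 each), and was above background on 0 of the 6 TMD8 arrays. It was at least 59.8-fold higher in DOHH2 under DMSO. SOCS2, a suppressor of cytokine signalling, came next at 0.819, followed by LAMP5, a lysosome-associated membrane protein, at 0.846, BBOX1, an enzyme of carnitine synthesis, at 1.09 and IGFBP2, which binds insulin-like growth factors, at 1.17. LAMP5 and BBOX1 were also above background on 0 of the 6 TMD8 arrays, and IGFBP2 on 2 of 3 with ST5589 and 0 of 3 with DMSO. The line differences of UCHL1, LAMP5 and BBOX1, and that of IGFBP2 under DMSO, can only be given as lower bounds. The distances were taken from the measured log2 signals, so their order depends on where the background lies. SDC1 ranked 24 with a distance of 1.65, MZB1 ranked 132 with 2.23, TXNDC5 ranked 141 with 2.25, and DERL3 and SSR4 ranked 982 and 999. SEC11C and FKBP11 ranked 4174 and 4349.

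The wider secretory machinery was read from 5 lists of endoplasmic reticulum and Golgi genes that hold none of the members. The lists had been drawn up with earlier results of these data known. Of their 113 genes, 105 were tested. Under DMSO 47 of the 105 were higher in DOHH2 at an adjusted p under 0.05 in limma, or 44.8%, against 25.5% of all genes, and 10 were lower, or 9.52%, against 27.1% of all genes. The median difference was 0.27, against -0.03 over all genes. Under ST5589 45 were higher and 10 lower, with a median of 0.26, where 25.5% of all genes were higher and 27.3% lower. When the arrays were instead only scaled to equal medians, 24 were higher under DMSO, or 22.9%, against 14.3% of all genes.

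**Figure D3:**
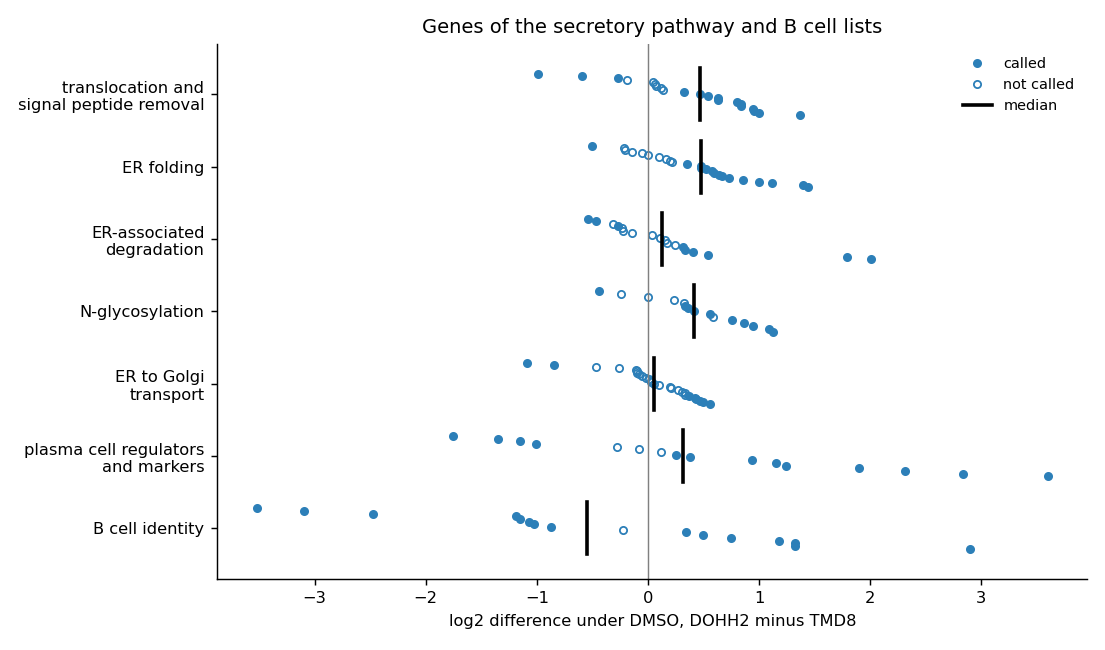
Difference between DOHH2 and TMD8 under DMSO, on the log2 scale, for every tested gene of 7 gene lists, 1 row per list (ER, endoplasmic reticulum). Filled points are genes at an adjusted p under 0.05, open points are the rest, and a vertical bar marks each median; medians run from -0.55 for B cell identity to 0.48 for ER folding.

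Genes of translocation and signal peptide removal were higher in DOHH2 for 12 of 21 and lower for 3, with a median difference of 0.47 under DMSO. The number of these genes called under DMSO ran from 10 to 17 over the 22 alternatives. Over all genes it ran from 3940 to 7924. SSR2 and SSR1, partners of SSR4 in the same complex, differed by 1.37 ± 0.13 (adjusted p = 8.2e-07) and 0.95 ± 0.12 (adjusted p = 1.2e-05). SSR3, the remaining partner, did not pass the test, at 0.05 ± 0.09 (adjusted p = 0.692). SEC11A, the alternative to SEC11C as catalytic subunit of the signal peptidase, differed by 0.54 ± 0.12 (adjusted p = 0.00188). Among the partners of SEC11C in the signal peptidase, SPCS3 differed by 0.84 ± 0.12 (adjusted p = 4.6e-05). SPCS1 differed by 0.33 ± 0.10 (adjusted p = 0.0117), and SPCS2, at 0.07 ± 0.09, did not pass (adjusted p = 0.497). SSR3 and the signal peptidase subunits were named after their values had been seen, as partners of members or, for SEC11A, as the alternative to a member. SRPRA, of the receptor that docks ribosomes, differed by 1.003 ± 0.11 (adjusted p = 5.1e-06). The 3 genes that were lower were SEC62, SEC61A2 and SEC61B, all parts of the translocation channel or its aids. SEC62 differed by -0.99 ± 0.10 (adjusted p = 1.2e-06) and SEC61A2 by -0.59 ± 0.08 (adjusted p = 4.0e-05). SEC61B differed by -0.27 ± 0.11 (adjusted p = 0.049) and did not pass under ST5589, at -0.20 ± 0.11 (adjusted p = 0.146).

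Genes of endoplasmic reticulum folding were higher in DOHH2 for 14 of 24 and lower for 1 under DMSO, with a median of 0.48. The number of folding genes called under DMSO ran from 9 to 19 over the 22 alternatives. The largest differences were those of TXNDC11, a thioredoxin-domain protein, at 1.45 ± 0.12 (adjusted p = 2.0e-07), HYOU1, a chaperone of the HSP70 family, at 1.40 ± 0.24 (adjusted p = 2.0e-04) and DNAJB9, a cochaperone of BiP, at 1.12 ± 0.09 (adjusted p = 1.1e-07). HSPA5, which encodes BiP itself, was the 1 gene that was lower, at -0.50 ± 0.10 under DMSO (adjusted p = 7.9e-04). Under ST5589 HSPA5 did not pass the test, at -0.07 ± 0.10 (adjusted p = 0.582). Genes of N-glycosylation, which adds the sugar trees of secreted proteins, were higher for 9 of 15 and lower for 1 under DMSO, with a median of 0.41. Over the 22 alternatives 5 to 10 of them were called under DMSO. STT3A, the catalytic subunit of the transferase, differed by 1.13 ± 0.14 (adjusted p = 9.6e-06), ALG5 by 1.09 ± 0.13 (adjusted p = 8.3e-06) and RPN2 by 0.94 ± 0.16 (adjusted p = 2.1e-04). The 1 that was lower, GANAB, named after its value was seen, differed by -0.44 ± 0.16 (adjusted p = 0.0374). Under ST5589 8 of the N-glycosylation genes were higher in DOHH2 and 0 lower.

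The degradation list was mixed. Of its 18 genes, 6 were higher and 3 lower in DOHH2 under DMSO, and the median was 0.13. Over all genes 25.5% were higher and 27.1% lower. The number of its genes called under DMSO ran from 4 to 13 over the 22 alternatives. EDEM1, which marks misfolded glycoproteins, differed by 2.01 ± 0.20 (adjusted p = 1.7e-06) and UBE2J1, an ubiquitin-conjugating enzyme of the same route, by 1.79 ± 0.09 (adjusted p = 1.4e-09). EDEM2, of the same family as EDEM1, differed by 0.54 ± 0.10 (adjusted p = 3.2e-04). VCP, the extracting ATPase, was lower at -0.54 ± 0.14 (adjusted p = 0.00392), as were SYVN1 at -0.47 ± 0.09 (adjusted p = 5.8e-04) and SEL1L at -0.27 ± 0.08 (adjusted p = 0.0142), which form the ligase that handles failed products. The other derlins, named after their values were seen, differed by 0.41 ± 0.12 for DERL1 (adjusted p = 0.014) and -0.14 ± 0.17 for DERL2 (adjusted p = 0.494). In transport between endoplasmic reticulum and Golgi, 6 of 27 genes were higher and 2 lower, with a median of 0.06. The share that was higher was thus no larger than the 25.5% of all genes. The number of transport genes called under DMSO ran from 2 to 16 over the 22 alternatives. The 2 that were lower, KDELR1, a receptor that returns escaped proteins, and COPA, a coat subunit of returning vesicles, differed by -1.09 ± 0.18 (adjusted p = 1.7e-04) and -0.85 ± 0.10 (adjusted p = 5.1e-06). Those highest in DOHH2 were BET1 at 0.56 ± 0.13 (adjusted p = 0.00233), TMED2 at 0.50 ± 0.10 (adjusted p = 0.00104) and GOLT1B at 0.47 ± 0.10 (adjusted p = 0.00145), all of vesicle traffic.

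The regulators of plasma cell identity went in opposite directions. XBP1 was higher in DOHH2 by 1.24 ± 0.08 under DMSO (adjusted p = 2.8e-08), and its second probe was higher as well, averaging 10.85 in DOHH2 with DMSO and 9.37 in TMD8 with DMSO. PRDM1, the repressor that ends the B cell program, was lower in DOHH2 by the same test, at -1.01 ± 0.12 (adjusted p = 6.9e-06). Under ST5589 its difference was -0.64 ± 0.12 (adjusted p = 4.3e-04). Its further probes were lower in DOHH2 by smaller amounts under DMSO. They averaged 6.01, 6.88 and 6.41 in DOHH2 and 6.36, 7.38 and 6.66 in TMD8. IRF4, which acts beside PRDM1, differed by -1.15 ± 0.20 under DMSO (adjusted p = 2.6e-04). Over the list of plasma cell regulators and markers, 9 of 16 genes were higher and 4 lower, where 25.5% of all genes were higher and 27.1% lower. CD27 and CD38, surface proteins of memory and plasma cells, differed by 3.60 ± 0.09 (adjusted p = 3.4e-12) and 2.84 ± 0.09 (adjusted p = 3.0e-11). TENT5C, a poly(A) polymerase that supports immunoglobulin mRNA, was higher too, at 2.31 ± 0.09 (adjusted p = 9.3e-11). In TMD8 with DMSO, CD27, CD38 and TENT5C averaged 6.27, 6.18 and 6.16, close to background. They were above background there on 3, 2 and 2 of 3 arrays, so these sizes depend on where the background lies. ITM2C at -1.75 ± 0.12 (adjusted p = 3.6e-08) and PIM2 at -1.35 ± 0.15 (adjusted p = 5.1e-06) were lower.

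Immunoglobulin itself could be followed only at the margin. Of 18 genes on the immunoglobulin list 3 had an annotated probe and 2 were tested; IGHM and IGKC are not analysed here. VPREB3, a gene of B cell precursors, differed between DOHH2 and TMD8 by 2.71 ± 0.20 under DMSO (adjusted p = 4.7e-08). In TMD8 with DMSO it averaged 6.16 and was above background on 2 of 3 arrays, so this size depends on where the background lies. The probe annotated to IGLL1 differed by 2.97 ± 0.09 (adjusted p = 1.2e-11), but IGLL1 is near-identical in part to the lambda light chain genes, so the source of this signal is uncertain. B cell identity genes were split, with 7 of 16 higher and 8 lower in DOHH2 under DMSO, against 25.5% and 27.1% of all genes. BCL6, the germinal centre repressor, was above background on 0 of 3 DOHH2 DMSO arrays and was at least 8.80-fold lower there than in TMD8 with DMSO (adjusted p = 6.6e-11). MME, or CD10, was at least 5.79-fold higher in DOHH2 (adjusted p = 1.0e-10). The transcription factors ID3 and SPI1 each differed by 1.32 in favour of DOHH2 (adjusted p = 3.2e-08 and 1.8e-05). SPIB, a relative of SPI1, and MS4A1, the B cell surface protein CD20, were lower, at -3.10 ± 0.27 (adjusted p = 3.3e-07) and -2.47 ± 0.15 (adjusted p = 1.1e-08).

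The response to ST5589 was tested in each line, and no member passed. In TMD8, 0 of 8 members were called, where 0.904% of all genes were; 1 member had an unadjusted p under 0.05, against 7.21% of all genes. That member was JCHAIN, which differed between ST5589 and DMSO by -0.36 ± 0.09 on the log2 scale in TMD8, with a 95% interval of -0.55 to -0.16 and an adjusted p of 0.117. All 3 TMD8 ST5589 arrays lay below the 3 TMD8 DMSO arrays for JCHAIN. The brighter TXNDC5 probe likewise did not overlap, at -0.29 ± 0.15 (adjusted p = 0.748). The second TXNDC5 probe went the other way, at 0.09 ± 0.25, and its groups overlapped. Of all genes, 17.7% were apart in 1 direction or the other. With arrays weighted by their quality JCHAIN passed, at -0.30 with an adjusted p of 0.0249. Over the 22 alternatives its difference in TMD8 ranged from -0.50 to -0.27 and its adjusted p from 0.0249 to 0.973. The other 6 members lay between -0.09 for SEC11C and 0.14 for FKBP11.

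**Figure D4:**
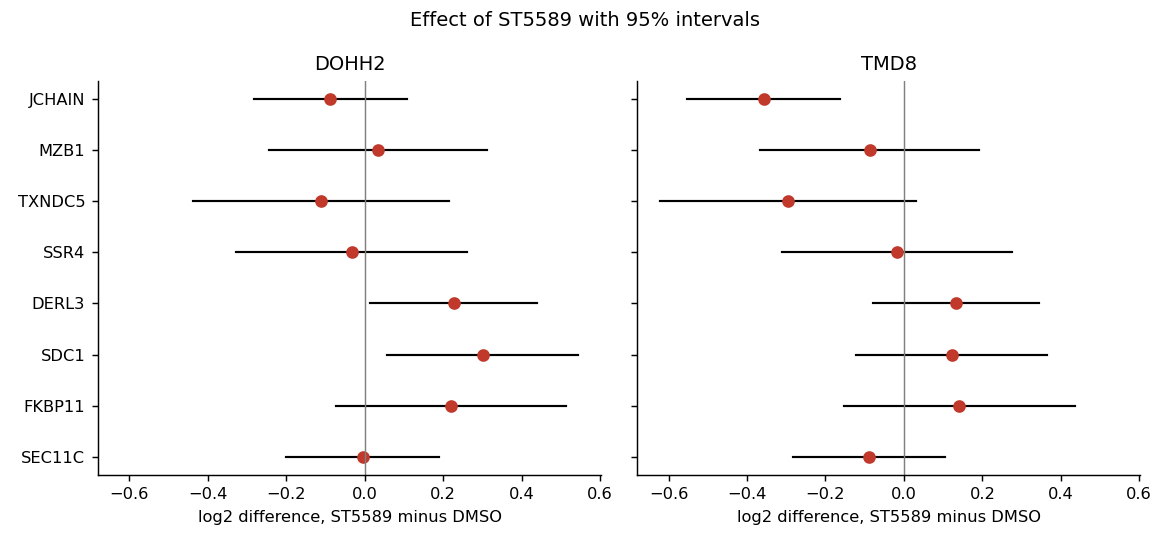
Difference between ST5589 and DMSO on the log2 scale for each member in DOHH2 and in TMD8, with 95% intervals. Each member is shown by its brightest kept probe only. JCHAIN in TMD8 lies at -0.36 and SDC1 in DOHH2 at 0.30; no member reached an adjusted p under 0.05 in either line.

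In DOHH2, 0 of 8 members were called, against 0.0341% of all genes, and 2 had an unadjusted p under 0.05, against 4.79%. By their brightest probes, SDC1 differed between ST5589 and DMSO by 0.30 ± 0.11 (adjusted p = 0.93) and DERL3 by 0.23 ± 0.10 (adjusted p = 0.93). The second kept SDC1 probe, near background, differed by -0.10 ± 0.11, and the mean of both probes was 1.07-fold higher with ST5589. The second DERL3 probe differed by 0.09 ± 0.07. Both of these second probes overlapped between the treatments. For the brighter DERL3 probe the arrays did not overlap between the treatments, being higher with ST5589. JCHAIN arrays were apart in the other direction by a narrow margin, at -0.09 ± 0.09 (adjusted p = 0.932). Of all genes, 8.33% were apart in 1 direction or the other. The widest interval among the members was that of TXNDC5, from -0.44 to 0.22. Without the second DOHH2 ST5589 array the count was 0 as well, and SDC1 differed by 0.32 and DERL3 by 0.27.

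The effect of ST5589 in DOHH2 minus that in TMD8 was tested as an interaction. Of the 8 members 0 were called, against 0.0171% of all genes, and 0 had an unadjusted p under 0.05, against 2.70%. The largest such difference was that of JCHAIN, at 0.27 ± 0.13 with a 95% interval of -0.01 to 0.55 (adjusted p = 0.9998). Over the 105 genes of the secretory lists, 0 were called by limma with ST5589 in either line. An unadjusted p under 0.05 was reached by 4 in TMD8, where 7.21% of all genes did so, and by 2 in DOHH2, against 4.79%. With array weights EDEM1 was called in TMD8, at 0.39 with an adjusted p of 0.0428, against 0.38 ± 0.20 and an adjusted p of 0.774 with equal weights.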

How the data were processed

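Total RNA of the 12 samples was labelled with biotin and hybridised to single-colour Illumina beadchips. GenomeStudio was used, per the submitters' processing notes. The authors deposited probe intensity values on a linear scale without normalization, and a second table on the log2 scale. How the authors normalized the deposited log2 table is not stated, and it served as an alternative. From the intensities, background was corrected with normexp (offset 50), arrays were quantile normalized and log2 was taken (R 4.3.3, limma 3.58.1). Neither detection p-values nor control probes were used. The background of each array was estimated from the mode of its intensities; probes above its 99th percentile on each of the 3 arrays of some group were kept, and the brightest kept probe stood for a gene (11728 genes; 30113 of 47231 probes had 1 symbol). Symbols came from the platform annotation, and those of probes with 1 symbol were updated to the current RefSeq symbol where the gene identifier matched. limma was fitted to all 12 arrays with 1 coefficient per group, and p-values were adjusted by Benjamini-Hochberg over all genes, with calls at 0.05. The steps were tested on simulated data. Precision is limited by the number of arrays, and a difference had a median SE of 0.11 on the log2 scale.

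Members and lists were chosen with earlier results of these data known. From each list the text names up to 3 genes per direction with the largest differences between lines under DMSO among those called with no overlap, up to 2 called genes per treatment contrast (0 were found), and PRDM1, IRF4, XBP1, PAX5, BCL6, IGHM, IGKC and HSPA5 in any case; the 5 genes nearest to JCHAIN were also named. The 22 alternatives changed normalization, offset, filter, probe choice, weights, the replicate block or the samples. Replicate numbers did not pair the samples.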

Additional observations from a re-analysis of the deposited data

How the results depend on the processing

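Over the 22 alternatives no member passed the test of ST5589 against DMSO in either line, or of the difference between lines in that effect, except under array weights, where JCHAIN passed in TMD8 (-0.30, the 1 member called). The cause was not tested. The treatment counts over all genes were small and unstable. With arrays scaled to equal medians, 7 genes were called in TMD8 (71.4% of them higher, against 60.4% of the 106 in the fit as reported), 0 in DOHH2 (against 4) and 0 in the interaction (against 2), and 3940 and 3749 between lines under DMSO and ST5589, against 6169 and 6190. Array weights gave 453 genes in TMD8 and 11 in the interaction. In DOHH2 the count was 1 without background correction, 1 with only the 2 groups of the contrast and 2 at an offset of 16; in the interaction it was 1 without background correction, 4 at an offset of 16 and 1 in the authors' deposited log2 values. Leaving out single arrays gave 56 to 117 genes in TMD8 (at most 65 without any 1 of its own 6 arrays), 1 to 5 in DOHH2 and 0 to 17 in the interaction, the last without the second TMD8 ST5589 array.

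Replicate numbers were shared between groups but did not pair the samples: correlations of same-numbered deviations between ST5589 and DMSO arrays ran from -0.49 to 0.00 in DOHH2 and from -0.15 to -0.03 in TMD8. With the replicate block 1 gene was called in DOHH2 and 80 in TMD8, and the block changed no member's call.

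Small member differences changed sign, on the log2 scale and with none past the threshold. ST5589 minus DMSO in TMD8 was -0.062 for FKBP11 with equal medians. In DOHH2 it was -0.14 for MZB1 with equal medians, -0.00910 with the mean of its probes and -0.037 with array weights, which also gave 0.041 for SEC11C and 0.00175 for SSR4. The interaction was -0.026 for TXNDC5 and -0.021 for SDC1 with the mean of probes, and -0.0027 for DERL3 and 0.12 for SSR4 with array weights. Over single arrays left out, SSR4 in TMD8 ran from -0.094 to 0.039; in DOHH2 MZB1 ran from -0.096 to 0.13, SEC11C from -0.053 to 0.042, TXNDC5 from -0.31 to 0.0014 and SSR4 from -0.17 to 0.085. The interaction ran from -0.0086 to 0.25 for MZB1, from -0.039 to 0.21 for FKBP11, from -0.019 to 0.30 for TXNDC5 and from -0.15 to 0.10 for SSR4. Sizes of dim probes such as those of JCHAIN in TMD8 depend on the signal over background and on the offset.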
